A study of Mus musculus with 4 samples.

Results

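PTIP, encoded by Paxip1, and the other subunits of the MLL3/MLL4 histone methyltransferase complex were followed in RNA from mouse osteoclast progenitors. The members are a list of genes by name, not selected by a threshold on measured values: Paxip1, Pagr1a, Kmt2c, Kmt2d, Kdm6a, Ncoa6, Wdr5, Rbbp5, Ash2l and Dpy30. Of these 10 genes, 9 were measured among 18276 genes in all, and these 9 were among the 12357 tested. The level of Pagr1a was not analysed here, and only its annotation and promoter are described. The progenitors were sorted from fresh bone marrow of mice on a B6;129 background as CD115+ cells lacking B220, CD3 and Mac-1, and their polyadenylated RNA was sequenced. The Ptip_KO (knockout) group holds 2 libraries from Ptip flox/flox Mx-1Cre mice and the WT (wild-type) group 2 libraries from WT Mx-1Cre mice. Both groups therefore carry the Mx-1Cre transgene, whose Mx1 promoter responds to interferon and is not specific to osteoclast progenitors. The age of the mice, how Cre was induced and whether a library came from 1 animal or several are not given in the sources used here, so the p-values below measure only the spread between these libraries.

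MLL3 and MLL4 are the methyltransferases that place monomethyl marks on lysine 4 of histone H3 at enhancers. PTIP binds them together with its small partner PA1 (encoded by Pagr1a), with UTX, a demethylase of lysine 27 of histone H3, and with the nuclear receptor coactivator NCOA6. A core of WDR5, RBBP5, ASH2L and DPY30 is shared with the other methyltransferases of the MLL/SET1 (COMPASS) family, while PTIP, PA1, UTX and NCOA6 are particular to MLL3 and MLL4. PTIP also acts apart from this complex, as a partner of 53BP1 in the repair of DNA breaks.

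The libraries held between 67592972 and 77773478 reads assigned to genes. Levels are given in CPM, reads scaled to the effective library size. Of all genes tested, 6.29% differed between the groups by limma at a Benjamini-Hochberg adjusted p under 0.05, with 3.86% lower and 2.43% higher in Ptip_KO. WT replicate 2 stood apart in sex-linked transcripts: its Xist level was 298 CPM and its level of Ddx3y, a Y-linked gene, 0.101 CPM, against at most 0.0814 CPM of Xist and at least 69.1 CPM of Ddx3y in the other 3 libraries. All genotype comparisons below include this library, and the members' fold changes are also given without it. Csf1r, the gene of CD115, was at 825 and 782 CPM in Ptip_KO against 677 and 606 CPM in WT (limma adjusted p = 0.149, DESeq2 adjusted p = 0.00317). The summed level of 8 progenitor and monocyte markers was 3918 to 4637 CPM in Ptip_KO and 4483 to 5462 CPM in WT. Among these 8, limma called Kit alone, lower at 15.3 against 61.3 CPM (adjusted p = 0.00908). Ly6c2 was at 1360 and 1195 CPM in Ptip_KO against 2059 and 1764 CPM in WT (limma adjusted p = 0.0768, DESeq2 adjusted p = 6.85e-06). The 6 T cell markers each stayed at or below 2.36 CPM. The 6 B cell markers summed to 52.0 to 56.1 CPM in Ptip_KO and 29.5 to 47.3 CPM in WT, most of it Cd79b, which was called higher (50.7 against 30.9 CPM, limma adjusted p = 0.0454), although the sort selected against B220. Itgam, which encodes a chain of Mac-1, was at 35.1 to 42.1 CPM although the sort selected against its protein. The summed level of 9 red cell markers was 714 to 977 CPM in the knockout libraries against 1824 to 4444 CPM in the wild type, that of 8 macrophage markers was 19.5 to 23.9 and 101 to 126 CPM, and that of 8 dendritic cell markers was 123 to 128 and 259 to 360.2 CPM. Limma called 6 genes lower in each of these 3 marker lists. The 8 neutrophil markers summed to 9368 to 10167 CPM in Ptip_KO and 8311 to 12557 CPM in WT, most of it Mpo, and limma called 0. DESeq2 called 3 of them lower, where it called 1126 of all 12357 genes tested lower and 15.4% in either direction. The 3 were S100a8 (235 against 694 CPM, DESeq2 adjusted p = 0.0198), S100a9 (299 against 978 CPM, adjusted p = 0.0199) and Ly6g (3.04 against 12.4 CPM, adjusted p = 0.00278). For these limma gave adjusted p-values of 0.0521, 0.0509 and 0.103. The part of these marker differences in the results below was not tested, and fewer cells of a type cannot be told apart from less RNA per cell.

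Only Paxip1 passed the test among the 9 members, and it fell. Paxip1 had 5.10 and 3.73 CPM in Ptip_KO replicates 1 and 2, from 388 and 261 reads, and 106 and 103 CPM in WT replicates 1 and 2, from 7786 and 8126 reads. Both Ptip_KO libraries were far below both WT libraries, and the replicates of each group lay closer to each other than the groups did. The Ptip_KO mean of 4.41 ± 0.970 CPM was 4.23% of the WT mean of 104 ± 1.83 CPM (SD, n = 2 each), and the individual Ptip_KO libraries were at 4.89% and 3.57% of that mean. The log2 fold change came to −4.29 (standard error 0.144), with a 95% interval of −4.65 to −3.94 and a limma adjusted p of 0.000383. This was the largest decrease on the log2(CPM + 1) scale among the 12357 genes tested. By edgeR on the recovered reads some genes fell further, such as Zfp990 (log2 fold change −8.13, against −4.56 for Paxip1). The files give 1 value per gene, so reads of the floxed exons and of the remaining exons of Paxip1 cannot be told apart.

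Paxip1 (ENSMUSG00000002221.11) lies on the minus strand of chromosome 5 at 27740080 to 27791691 (mm10), and no annotated gene overlaps it. Its merged exons in GENCODE M21 cover 10271 bases in 21 blocks. The 250 bases before its RefSeq start site are shown because Paxip1 is the only member called lower. A match to the core motif of the transcription factor NRF1, GCATGCGC, is in capitals. Paxip1 is the floxed gene of the Ptip_KO mice, and a link between its fall and this promoter was not tested. The motif matched both strands, so the 2 matches overlap and the capitals run over 10 bases. The GENCODE gene starts inside this window.
Paxip1, chr5:27791551-27791800, minus strand, GRCm38.p6: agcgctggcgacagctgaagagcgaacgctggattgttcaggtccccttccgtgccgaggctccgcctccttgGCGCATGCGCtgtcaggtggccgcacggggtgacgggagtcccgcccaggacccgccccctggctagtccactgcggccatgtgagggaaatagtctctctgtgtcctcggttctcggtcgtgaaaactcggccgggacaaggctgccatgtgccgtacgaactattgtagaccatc
Among the 9 members with a RefSeq promoter, all but Ash2l (250 bases before to 50 after the start), this motif was found on either strand in 2, Paxip1 and Pagr1a, the genes of PTIP and its small partner. It was found for 3.05% of 27025 genes, counting a gene when any of its promoters held the motif. The motifs were chosen with results of these data known, and a match does not show that the factor binds. GGGCGG, the GC box, was found in 6 of the 9 members and 38.2% of all genes. CCAAT was found in 2 (41.1% of all genes), CACGTG in 1 (8.09%), TATAAA in 1 (15.7%) and CCGGAAG in 0 (9.93%). The members' promoters had a median GC content of 62.7%, from 39.3% for Ncoa6 to 88.0% for Kmt2c, against 53.3% over all genes, taking the promoter with the highest GC content of each gene.

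**Figure D1:**
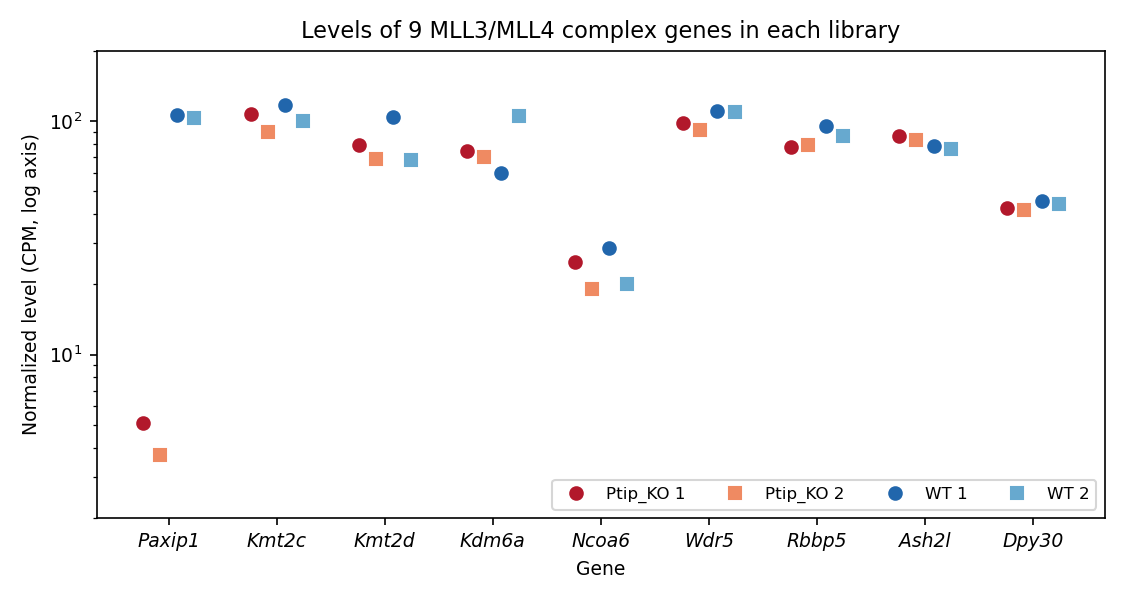
Normalized level in CPM (vertical log axis) of the 9 measured complex genes in each of the 4 libraries, 1 point per library, with circles for replicate 1 and squares for replicate 2. Paxip1 is at 5.10 and 3.73 CPM in Ptip_KO and above 100 CPM in WT, while the points of the other 8 genes lie close together or overlap between groups.

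The other 8 members did not pass the test. Of the 8, 7 had a negative log2 fold change, with values from −0.22 for Rbbp5 to 0.13 for Ash2l, around a median of −0.14, and their limma adjusted p-values were between 0.208 and 0.794. Over all genes tested the median log2 fold change was 0.00 and 49.5% were negative. Counting Paxip1, the gene floxed in the Ptip_KO mice, 1 of 9 members was called lower and 0 higher by limma. Of all genes, 3.86% were called lower and 2.43% higher. EdgeR and DESeq2 likewise called Paxip1 and no other member, where they called 5.34% and 15.4% of all genes in either direction. At an unadjusted limma p under 0.05 there were 2 of 9 members, Paxip1 and Wdr5, and 23.8% of all genes. The lowest and highest bounds of the 95% intervals among the 8 were −0.76 and 0.49, both for Kdm6a. Without WT replicate 2, the log2 fold change of Paxip1 was −4.31. Those of the others were then −0.26 for Kmt2c, −0.49 for Kmt2d, 0.27 for Kdm6a, −0.37 for Ncoa6, −0.22 for Wdr5, −0.28 for Rbbp5, 0.11 for Ash2l and −0.11 for Dpy30. The plot of fold changes shows the estimates and their intervals.

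**Figure D2:**
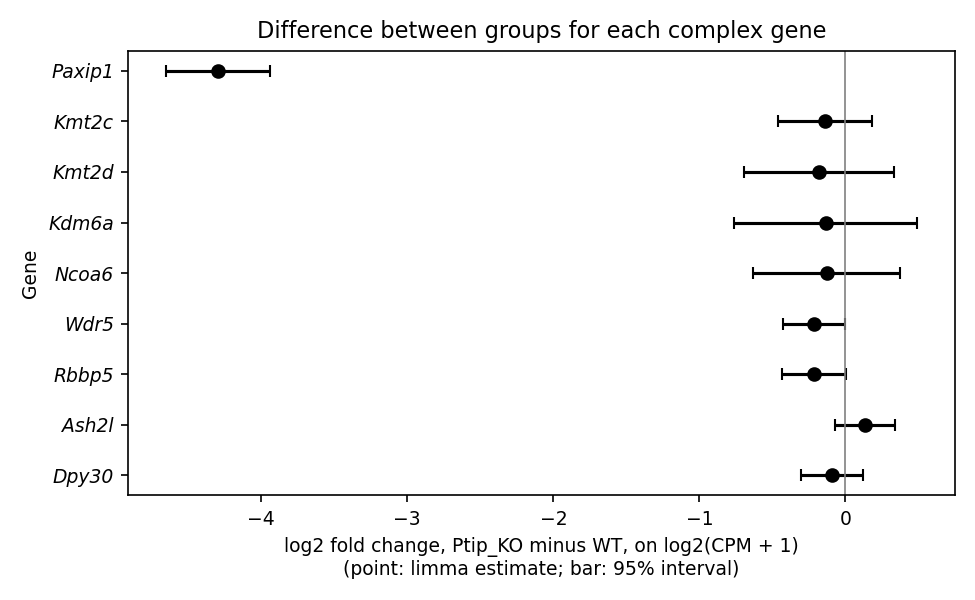
Log2 fold change of each complex gene, Ptip_KO minus WT on log2(CPM + 1) (horizontal axis), with points for the limma estimate and bars for its 95% interval. Paxip1 stands at −4.29, and the other 8 genes lie between −0.22 and 0.13, with the widest interval for Kdm6a.

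Kmt2c and Kmt2d encode the methyltransferases MLL3 and MLL4 themselves. Kmt2c was at 107 and 89.7 CPM in the knockout libraries against 118 and 99.7 CPM in the wild type, and the groups overlapped. Its log2 fold change was −0.14 with a 95% interval of −0.46 to 0.18 and a limma adjusted p of 0.569, so the interval of the ratio ran from 0.725 to 1.13. Kmt2d was at 79.4 and 68.7 CPM in the knockout libraries against 104 and 67.8 CPM in the wild type. WT replicate 1 was the high library, and WT replicate 2 lay below both Ptip_KO libraries. The log2 fold change of Kmt2d was −0.18 with a 95% interval of −0.70 to 0.33 and a limma adjusted p of 0.647. Its sign depended on the WT library kept, at −0.49 without WT replicate 2 and 0.12 without WT replicate 1. Kmt2c lies on chromosome 5 at 25271798 to 25498783 and Kmt2d on chromosome 15 at 98831669 to 98871204. Of the merged exons of Kmt2c, 1.35% overlap a predicted gene on the opposite strand, Gm42585.

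The relatives of these enzymes did not pass either. Kmt2a and Kmt2b, which encode MLL1 and MLL2, were at 47.0 ± 1.84 and 67.2 ± 5.19 CPM in the knockout libraries against 48.2 ± 5.48 and 72.5 ± 0.546 CPM in the wild type (SD, n = 2 each). Setd1a and Setd1b, the genes of the SET1 enzymes, averaged 17.7 and 16.4 CPM in the knockout libraries against 20.0 and 19.0 CPM in the wild type. Their limma adjusted p-values were 0.901 for Kmt2a, 0.529 for Kmt2b, 0.430 for Setd1a and 0.631 for Setd1b. Per kilobase of the longest transcript, the WT means were 8.57 for Kmt2b, 7.26 for Kmt2c, 4.34 for Kmt2d, 3.08 for Setd1a, 2.93 for Kmt2a and 2.14 CPM for Setd1b. By this length Kmt2b and Kmt2c were thus above the other 4 in both WT libraries, and the ranges of Setd1a and Kmt2a overlapped. Per kilobase of merged exon the WT ranges of Kmt2c and Kmt2d overlapped, but Kmt2c was above Kmt2d within each library. Kmt2a, Kmt2b, Setd1a and Setd1b were not analysed on that length.

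Kdm6a, the X-linked gene of UTX, had its highest and its lowest level within the WT group. It was at 74.3 and 69.9 CPM in Ptip_KO, 59.7 CPM in WT replicate 1 and 105 CPM in WT replicate 2, so that both Ptip_KO libraries lay between the WT libraries. The log2 fold change was −0.14 with a 95% interval of −0.76 to 0.49 and a limma adjusted p of 0.794. Without WT replicate 2 it was 0.27 and without WT replicate 1 it was −0.54. The Ptip_KO mean was 1.21 times the level of WT replicate 1 and 0.686 times that of WT replicate 2. WT replicate 2 is the library with Xist, the RNA of the inactive X chromosome, and with almost no Y-linked transcripts, so among the 3 libraries with Y-linked transcripts the only comparison of genotypes rests on 1 WT library.

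Uty is the Y-linked relative of Kdm6a and encodes a protein close to UTX. It was at 32.2 and 32.7 CPM in Ptip_KO, 24.7 CPM in WT replicate 1 and 0.190 CPM in WT replicate 2. Kdm6a and Uty together came to 106 and 103 CPM in Ptip_KO, 84.5 CPM in WT replicate 1 and 105 CPM in WT replicate 2. The sum in WT replicate 2 thus lay between those of the Ptip_KO libraries, and WT replicate 1 was the low library. The sums averaged 105 ± 2.72 CPM in the knockout libraries against 94.8 ± 14.7 CPM in the wild type (SD, n = 2 each), a difference smaller than the SD of WT. The longest transcript of Kdm6a matched Uty at 82.0% of 2194 aligned positions, which is under the 95% used here for near-identical copies.

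The promoters of this pair are shown because the levels of Kdm6a and Uty were summed as a pair. Both hold the letters CACGTG, an E-box, in capitals, which begins 27 bases before the start for Kdm6a and 25 bases before it for Uty.
Kdm6a, chrX:18162325-18162574, plus strand, GRCm38.p6: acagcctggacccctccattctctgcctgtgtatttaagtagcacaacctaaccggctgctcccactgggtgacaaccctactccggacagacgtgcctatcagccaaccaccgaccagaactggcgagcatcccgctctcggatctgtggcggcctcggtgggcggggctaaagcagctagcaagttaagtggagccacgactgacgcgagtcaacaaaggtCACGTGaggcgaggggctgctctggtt
Uty, chrY:1245760-1246009, minus strand, GRCm38.p6: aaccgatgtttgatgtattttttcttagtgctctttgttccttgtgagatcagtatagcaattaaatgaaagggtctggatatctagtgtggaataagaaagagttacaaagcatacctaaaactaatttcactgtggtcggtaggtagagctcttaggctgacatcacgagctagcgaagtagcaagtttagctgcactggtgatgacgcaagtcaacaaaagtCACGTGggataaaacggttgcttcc
The best local alignment of these 250 bases matched 47 of 62 aligned columns (75.8%) and ended at the E-box.
Kdm6a, aligned stretch: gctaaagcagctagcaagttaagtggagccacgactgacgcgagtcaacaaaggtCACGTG
Uty, aligned stretch: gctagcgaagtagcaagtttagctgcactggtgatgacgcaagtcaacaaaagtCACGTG
The E-box was found for 8.09% of all genes and in none of the other 8 members with a RefSeq promoter, and such a match does not show binding.

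Other X-linked genes gave a scale for the difference between the WT libraries. Over 292 X-linked genes with at least 5 CPM in both WT libraries, the ratio of WT replicate 2 to WT replicate 1 had a median of 0.963, with quartiles of 0.870 and 1.06, and over 9502 autosomal genes the median was 0.951. The ratio of Kdm6a was 1.76, which ranked 5 among the 292. It was 1.27 for Kdm5c, a demethylase of lysine 4 of histone H3, 1.36 for Eif2s3x, a translation factor gene, and 0.968 for Ddx3x, an RNA helicase gene. Kdm5c was at 111 and 116 CPM in the knockout libraries against 131 and 167 CPM in the wild type, while its Y-linked relative Kdm5d was at 44.5 and 47.2 CPM in Ptip_KO, 35.6 CPM in WT replicate 1 and 0.165 CPM in WT replicate 2. The sum of Kdm5c and Kdm5d was 156 and 164 CPM in the knockout libraries against 167 CPM in each WT library. Ddx3x with Ddx3y came to 567 and 519 CPM in Ptip_KO, 554 CPM in WT replicate 1 and 469 CPM in WT replicate 2, and Eif2s3x with Eif2s3y to 265 and 257 CPM in Ptip_KO, 281 CPM in WT replicate 1 and 308 CPM in WT replicate 2. WT replicate 2 was thus the lowest library for the former sum and the highest for the latter. Eif2s3y, the relative of Eif2s3x, was at 55.0 to 65.5 CPM in the 3 libraries with Y-linked transcripts and at 0.0380 CPM, or 3 reads, in WT replicate 2. Kdm6b, the autosomal demethylase of the same mark as UTX, was at 13.0 and 18.7 CPM in the knockout libraries against 14.2 and 13.7 CPM in the wild type (limma adjusted p = 0.659).

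**Figure D3:**
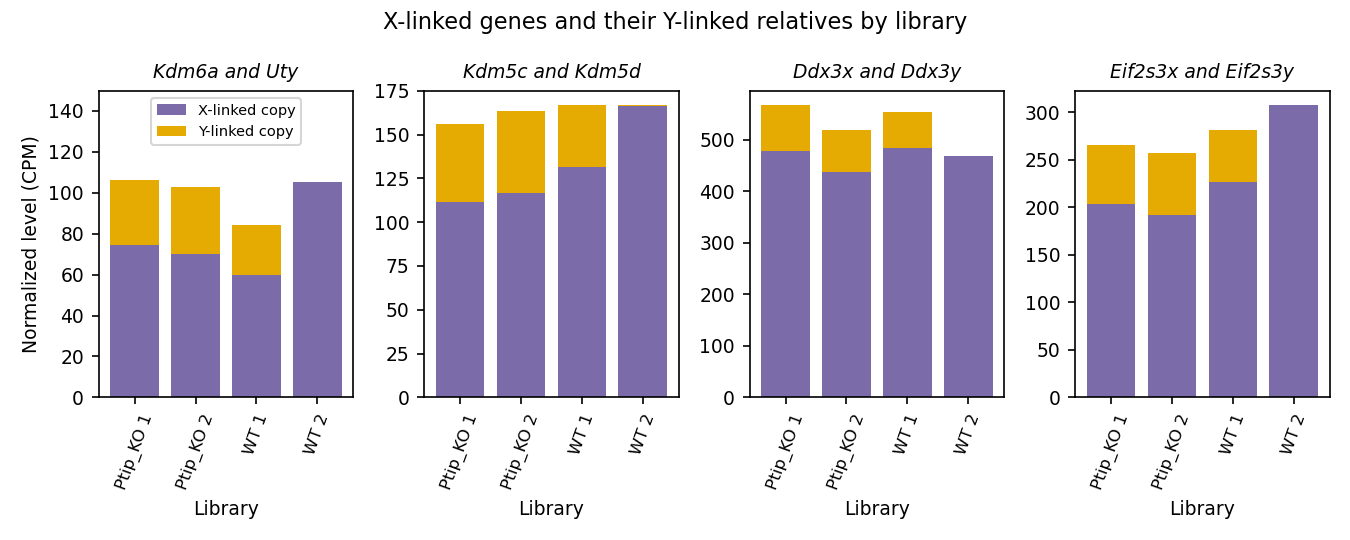
Level in CPM (vertical axis from 0) of X-linked genes (purple) with their Y-linked relatives stacked on top (yellow) in each library. The Y-linked part is visible in 3 libraries and close to 0 in WT replicate 2, where the Kdm6a bar reaches 105 CPM.

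Ncoa6, which encodes a coactivator of nuclear receptors, had the lowest level per kilobase of the members in WT. It was at 24.9 and 19.1 CPM in the knockout libraries against 28.5 and 20.0 CPM in the wild type, and the groups overlapped. Its log2 fold change was −0.13 with a 95% interval of −0.63 to 0.38 and a limma adjusted p of 0.753. Ncoa6 lies on chromosome 2 at 155390656 to 155473894.

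The 4 genes of the shared core had the smallest standard errors of the fold change among the members. Wdr5, whose protein has a propeller of WD repeats that binds the methyltransferase, was at 98.5 and 91.5 CPM in the knockout libraries against 111 and 109.8 CPM in the wild type. Rbbp5, the gene of a second WD-repeat subunit, was at 77.5 and 78.8 CPM in the knockout libraries against 95.3 and 86.7 CPM in the wild type. Both were lower in both Ptip_KO libraries than in either WT library, as were 27.3% of all genes tested. The log2 fold change of Wdr5 was −0.21 with a 95% interval of −0.43 to 0.00, an unadjusted p of 0.0488 and a limma adjusted p of 0.208. That of Rbbp5 was −0.22 with a 95% interval of −0.44 to 0.01 and a limma adjusted p of 0.222. Neither passed under any of the 13 alternatives, with adjusted p-values from 0.0834 to 0.747 for Wdr5 and 0.107 to 0.662 for Rbbp5.

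Ash2l encodes a subunit that forms a dimer with RBBP5 and stimulates the enzyme. It was at 86.6 and 82.8 CPM in the knockout libraries against 78.4 and 76.1 CPM in the wild type, and was the only one of the 9 members with both Ptip_KO libraries above both WT libraries, as were 27.7% of all genes. Its log2 fold change was 0.13 with a 95% interval of −0.08 to 0.34 and a limma adjusted p of 0.405. Dpy30, whose small protein binds ASH2L, was at 42.2 and 41.8 CPM in the knockout libraries against 45.3 and 44.2 CPM in the wild type. Both Ptip_KO values of Dpy30 were below both WT values, as for 27.3% of all genes tested. The log2 fold change of Dpy30 was −0.09, with a 95% interval of −0.30 to 0.12 and a limma adjusted p of 0.580. At the spread of these libraries and the largest p that passed, a log2 change of 0.41 to 0.44 was needed for a call in the 4 core genes, 0.64 in Kmt2c, 1.00 in Ncoa6, 1.01 in Kmt2d and 1.24 in Kdm6a. Smaller estimates could not pass at the standard errors of this fit, least of all for Kdm6a. These values do not bound the true changes.

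Wdr5 lies on chromosome 2 at 27515157 to 27536535, Rbbp5 on chromosome 1 at 132477365 to 132505659, Ash2l on chromosome 8 at 25815996 to 25847694, Dpy30 on chromosome 17 at 74299474 to 74323944 and Kdm6a on the X chromosome at 18162575 to 18279936. The 9 measured members sit on 7 chromosomes, and the only pairs on the same chromosome are Paxip1 with Kmt2c and Wdr5 with Ncoa6. Near-identical copies in the annotation were found for Kmt2d (Gm47184, 99.6% over 455 nucleotides) and Rbbp5 (Gm11977, 96.8% over 790 nucleotides). Reads shared with such a copy could have been counted for either gene. The levels of Gm47184 and Gm11977 were not analysed here, so whether this happened is not known. Pagr1a (chromosome 7, 127015033 to 127017352) shares 98.7% of its exon bases with the overlapping gene Gm42742 on the same strand and 24.3% with Pagr1b.

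Levels of different genes were compared per kilobase of merged exon. In WT the order was Dpy30 at 39.1 ± 0.677, Wdr5 at 30.6 ± 0.167, Rbbp5 at 23.2 ± 1.54, Paxip1 at 10.2 ± 0.178, Kdm6a at 9.83 ± 3.82, Ash2l at 8.61 ± 0.181, Kmt2c at 5.36 ± 0.625, Kmt2d at 4.31 ± 1.29 and Ncoa6 at 2.49 ± 0.614 CPM per kilobase (SD, n = 2). The shared core without Ash2l was thus above all members particular to MLL3 and MLL4. Kdm6a, with 7.12 and 12.5 CPM per kilobase in the WT libraries, spanned its neighbours Paxip1 and Ash2l, so its place among them was not fixed. The WT ranges of Kmt2c and Kmt2d overlapped across libraries. Within each library Kmt2c was above Kmt2d, at 5.80 against 5.22 in WT replicate 1 and 4.92 against 3.40 in WT replicate 2. In Ptip_KO replicates 1 and 2 the values were 5.29 against 3.98 and 4.42 against 3.45. In Ptip_KO, Paxip1 moved from place 4 to place 9, at 0.429 ± 0.0944 CPM per kilobase, below Ncoa6 at 2.25 ± 0.420.

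The place of Ash2l and the overlap of the WT ranges of Kmt2c and Kmt2d depended on the length used. By either length Kmt2c was above Kmt2d within each library. The merged exons of Ash2l cover 8969 bases and its longest transcript 3702 bases. By the longest transcript Ash2l was at 20.9 ± 0.438 CPM per kilobase in WT, above Paxip1 at 17.8 ± 0.313, and the 4 core genes then held the 4 highest places. By that length the WT libraries of Kmt2c, at 7.86 and 6.66 CPM per kilobase, lay above those of Kmt2d at 5.25 and 3.42. Dpy30 was at 56.8 ± 0.984 CPM per kilobase and Kdm6a at 13.9 ± 5.40 by the longest transcript.

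**Figure D4:**
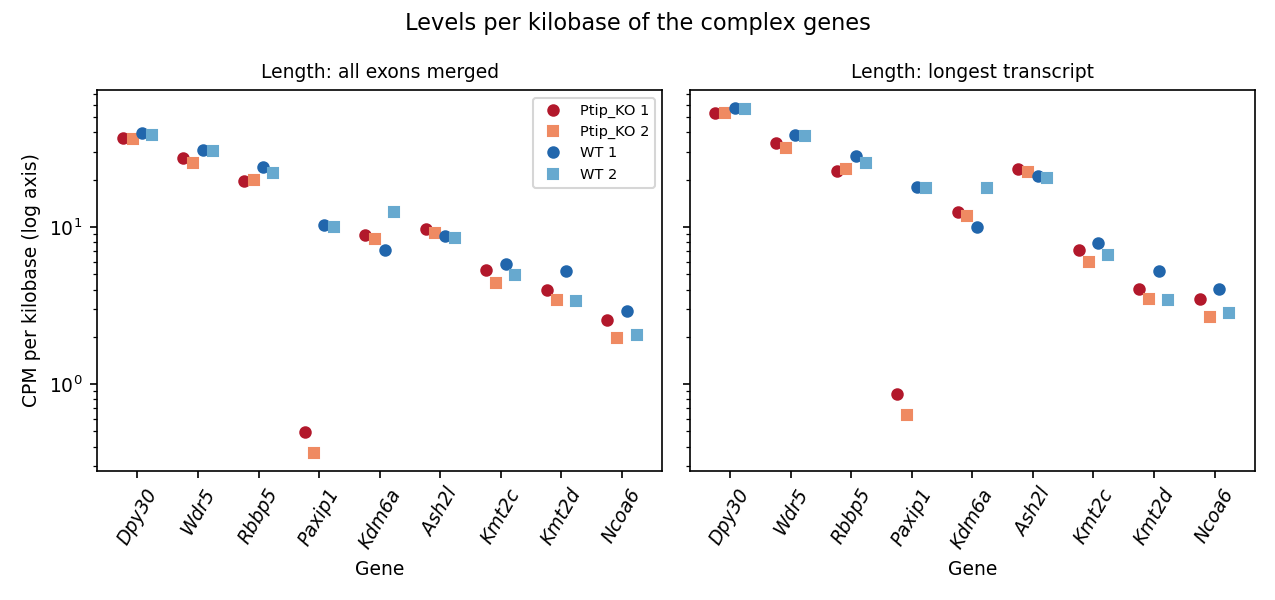
Level in CPM per kilobase (vertical log axis) of the 9 complex genes in each library, with length taken as all merged exons (left) or the longest transcript (right). Dpy30 and Wdr5 are the highest in every library under both lengths, Ash2l is at 8.61 (left) and 20.9 (right) in WT, and Paxip1 is the lowest in both Ptip_KO libraries.

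Genes of related complexes were taken from 5 lists with 59 genes, of which 58 were tested. Limma called 1 higher, Arid1b, and 0 lower, where 6.29% of all genes tested were called, and 9 of the 58 had an unadjusted limma p under 0.05 (23.8% of all genes). EdgeR called 1 higher and 1 lower, and DESeq2 2 higher and 3 lower, where they called 5.34% and 15.4% of all genes tested in either direction. The median log2 fold change over the 58 was −0.04, beside 0.00 over all genes. The red cell, macrophage and dendritic cell marker sums differed between the same groups, and whether this bears on these lists was not tested.

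Limma and edgeR called 0 of the 12 other COMPASS genes and DESeq2 called 1 (15.4% of all genes tested). An unadjusted limma p under 0.05 was seen for 1, beside 23.8% of all genes tested. Estimates were below 0 for 11 of them, around a median of −0.09. Hcfc2, a relative of the host cell factor gene Hcfc1, had the smallest p of the list, at 9.0 and 10.4 CPM in the knockout libraries against 13.7 and 17.8 CPM in the wild type. Both Ptip_KO libraries were below both WT libraries, as for 27.3% of all genes tested. The log2 fold change of Hcfc2 was −0.64 with a limma adjusted p of 0.0780. Over the alternatives that kept every library, the adjusted p ran from 0.0177 (DESeq2) to 0.1435 (limma after rescaling to a common sum). DESeq2 called Hcfc2 lower, and without WT replicate 1 its limma log2 fold change was −0.82. Hcfc1 averaged 304 CPM in the knockout libraries against 339 CPM in the wild type (limma adjusted p = 0.412).

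Limma, edgeR and DESeq2 each called 0 of 8 demethylase genes. Kdm5c was the only 1 with an unadjusted limma p under 0.05, where 23.8% of all genes tested had such a p. The list had a median of 0.16 that includes the Y-linked Uty and Kdm5d. Kdm5b, a demethylase of lysine 4 of histone H3, was at 40.9 and 46.9 CPM in the knockout libraries against 23.9 and 38.0 CPM in the wild type. Both Ptip_KO libraries were above both WT libraries, as for 27.7% of all genes tested. The log2 fold change of Kdm5b was 0.52 with a limma adjusted p of 0.223. The estimate for Kdm5b was 0.85 without WT replicate 2 and 0.20 without WT replicate 1. Kdm5a averaged 121 CPM in the knockout libraries against 107 CPM in the wild type (limma adjusted p = 0.274), and Kdm5c had a log2 fold change of −0.37 with an adjusted p of 0.159. The estimate for Kdm5c was −0.54 without WT replicate 1 and −0.20 without WT replicate 2.

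Among 10 PRC2 genes, whose complex methylates lysine 27 of histone H3, limma called 0, edgeR 1 and DESeq2 2. Over all genes tested these shares were 6.29%, 5.34% and 15.4%. An unadjusted limma p under 0.05 was seen for 2, beside 23.8% of all genes tested, and the list median was −0.06. Jarid2, a subunit that guides PRC2, was at 80.0 and 76.4 CPM in the knockout libraries against 111 and 101 CPM in the wild type. Both Ptip_KO libraries were thus below both WT libraries, as for 27.3% of all genes tested. The estimate for Jarid2 was −0.43 on the log2 scale (limma adjusted p = 0.0561), and it passed by edgeR (adjusted p = 0.0436) and by DESeq2 (0.000194), where all alternatives spanned 0.000194 to 0.278. The limma estimate for Jarid2 was −0.51 without WT replicate 2 and −0.36 without WT replicate 1. Ezh1, the enzyme gene that is the relative of Ezh2, was at 57.4 and 52.9 CPM in the knockout libraries against 42.2 and 43.4 CPM in the wild type, with a log2 fold change of 0.36 (limma adjusted p = 0.0814, DESeq2 adjusted p = 0.0114, and 0.0114 to 0.458 over the alternatives). Suz12 averaged 123 and 135 CPM (limma adjusted p = 0.489).

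In the list of genes that act with PTIP in DNA repair, limma, edgeR and DESeq2 each called 0 of 16. An unadjusted limma p under 0.05 was seen for 3, beside 23.8% of all genes tested. Of the 16 estimates 8 were negative and 8 positive, and the median was −0.01. Trp53bp1, which encodes the partner 53BP1, was at 37.6 and 44.6 CPM in the knockout libraries against 30.6 and 35.9 CPM in the wild type. Its Ptip_KO libraries were above both WT libraries, as for 27.7% of all genes tested. The log2 fold change of Trp53bp1 was 0.30 (limma adjusted p = 0.240). Shld2, a gene of the shieldin complex that acts after 53BP1, was at 20.2 and 17.6 CPM in the knockout libraries against 14.7 and 13.8 CPM in the wild type (log2 fold change 0.38, limma adjusted p = 0.123). Mdc1 and Brca1 had log2 fold changes of −0.29 and −0.26 with limma adjusted p-values of 0.124 and 0.159.

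Of 12 enhancer coactivator genes, limma and edgeR each called 1 higher and 0 lower, and DESeq2 called 1 higher and 1 lower. Over all genes tested, limma, edgeR and DESeq2 called 6.29%, 5.34% and 15.4% in either direction. An unadjusted limma p under 0.05 was seen for 2, beside 23.8% of all genes tested, and the list median was −0.07. Arid1b, a DNA-binding subunit of the BAF chromatin remodeller, was at 247 and 236 CPM in the knockout libraries against 179 and 177 CPM in the wild type. It rose by a log2 fold change of 0.44 with a limma adjusted p of 0.0427, and the replicates of each group lay closer to each other than the groups did. The call was lost without Ptip_KO replicate 1 (adjusted p = 0.260) and without Ptip_KO replicate 2 (0.191), where all alternatives spanned 3.11e-06 to 0.260. Arid1a, the gene of the alternative subunit, was at 118 and 114 CPM in the knockout libraries against 166 and 134 CPM in the wild type, with a log2 fold change of −0.36 (limma adjusted p = 0.151, DESeq2 adjusted p = 0.0279, and 0.0156 to 0.471 over the alternatives). The limma estimate for Arid1a was −0.51 without WT replicate 2 and −0.20 without WT replicate 1. Ncoa1, a steroid receptor coactivator gene, averaged 60.5 CPM in the knockout libraries against 77.5 CPM in the wild type (log2 fold change −0.34, limma adjusted p = 0.222). The estimate for Ncoa1 was −0.53 without WT replicate 2 and −0.16 without WT replicate 1. Ep300, the gene of a histone acetyltransferase, was at −0.30 with every library kept (limma adjusted p = 0.233). Its estimate was −0.48 without WT replicate 2 and −0.13 without WT replicate 1. Ep300 is named after its values were seen.

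**Figure D5:**
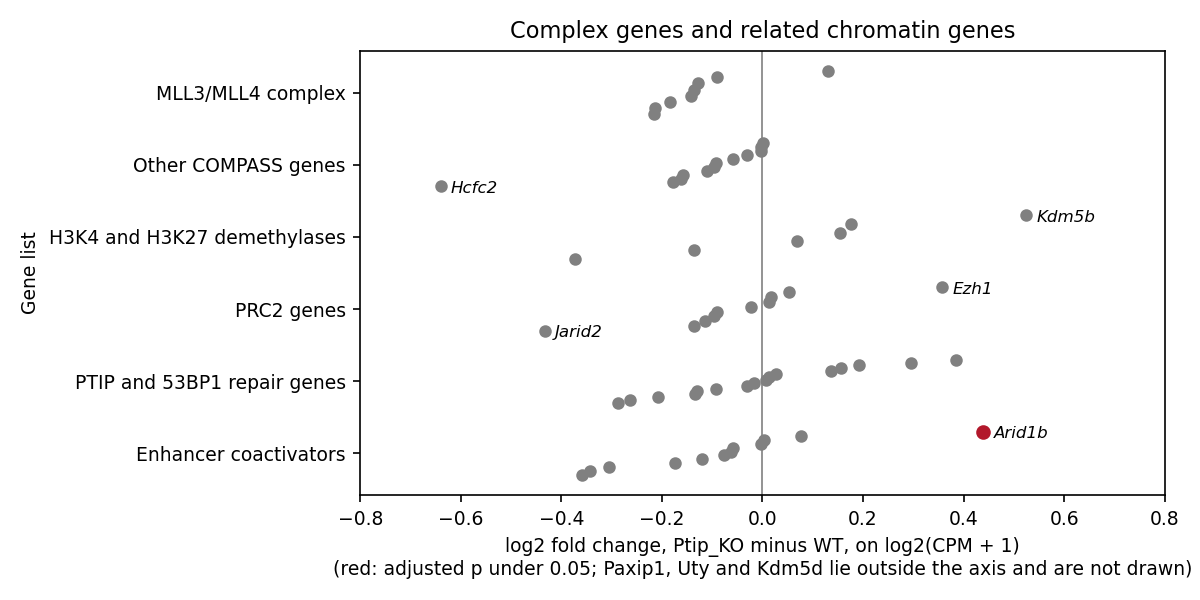
Log2 fold change, Ptip_KO minus WT on log2(CPM + 1) (horizontal axis), of complex genes and 5 related lists, 1 point per gene, with red for an adjusted p under 0.05. Arid1b at 0.44 is the only red point, and Paxip1, Uty and Kdm5d lie outside the axis and are not drawn.

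The genes whose pattern over the 4 libraries was most like that of Paxip1 were found by the Euclidean distance between centred log2(CPM + 1) values. The values were not scaled, so this distance favours genes with a decrease about as large as that of Paxip1. The nearest was Nlrp1a, an inflammasome sensor gene, at a distance of 0.43 log2 units, with 2.09 and 2.04 CPM in the knockout libraries against 56.4 and 42.9 CPM in the wild type. Next came Zfp990, a zinc finger gene, at 0.74, with 0.0657 and 0.0143 CPM in the knockout libraries against 13.8 and 10.2 CPM in the wild type. Itga1, a collagen-binding integrin gene, followed at 0.94, the pseudogene Rps13-ps1 at 1.01 and the enolase gene Eno1b at 1.09. The 5 genes lie on 5 chromosomes other than that of Paxip1, and none is a member. The counts of Zfp990, Rps13-ps1 and Eno1b are uncertain because each has at least 1 near-identical copy in the table.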

How the data were processed

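The deposited values are a normalized signal that the file name calls edgeR CPM on the effective library size. Per the submitters' processing notes, TopHat2 2.0.10, HTSeq 0.6.0, edgeR 3.8.6 and build mm10 were used, and their order, the annotation and the use of strand in counting are not given in the sources used here. All values (100%) of each library were whole multiples of its smallest value within 0.01 read, so whole reads were recovered. A count of 0 allows up to 3 reads, or 0.0380 to 0.0428 CPM per library (counting error only).

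The 12357 genes that reached 1 CPM in 2 or more libraries entered a two-sided limma fit (3.58.1, R 4.3.3, trended prior) of log2(CPM + 1) on genotype alone, adjusted by Benjamini-Hochberg over all of them. This scale understates changes of low genes. On the recovered reads, edgeR 4.0.16 called 660 genes and DESeq2 1.42.0 called 1906, where limma called 777. Other alternatives were pseudocounts of 0.25 and 5, no filter, a filter at 5 CPM, 2 scalings, the replicate number as a block and leaving out each library. The procedure was tested on simulated data.

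The members were listed by name, and both that list and the related lists were drawn up with earlier results of these data known. The text names all members, and from each related list the genes past the threshold, the 3 smallest p-values and fixed relatives of the members. It also names the sex-linked genes and the 5 nearest patterns to Paxip1. Positions and lengths are from GENCODE M21 (GRCm38, the assembly of mm10), where 92.2% of identifiers had the same version, and promoters from RefSeq on GRCm38.p6. Near-identical copies share at least 95% identity over at least 200 nucleotides and 50% of the shorter transcript (BLAST).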

Additional observations from a re-analysis of the deposited data

How the results depend on the processing

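Paxip1 kept its direction and its call under all 13 alternatives, with log2 fold changes from −4.56 to −3.54 and from −4.48 to −4.11 when each library was left out. Of 104 alternative values of the other 8 members, 98 kept their direction and stayed uncalled. The sign turned without WT replicate 1 for Kmt2d (0.12) and Ncoa6 (0.11), without WT replicate 2 for Kdm6a (0.27) and without Ptip_KO replicate 2 for Ncoa6 (0.05). Leaving out each library gave −0.49 to 0.12 for Kmt2d, −0.54 to 0.27 for Kdm6a and −0.37 to 0.11 for Ncoa6. Kmt2d (without WT replicate 2) and Kdm6a (without WT replicate 1) gained a call. When libraries were left out in turn, the members called lower numbered 1 to 2, the genes of all called lower 339 to 920 and higher 113 to 700, and the related genes called lower 0 to 4 and higher 0 to 3. DESeq2 called 1126 genes lower and 780 higher, and 3 related genes lower and 2 higher. Rescaling to a common sum and edgeR each called 1 related gene, Jarid2, lower. With the replicate number as a block, 1030 genes were called lower and 691 higher, with 2 related genes lower (Jarid2, adjusted p = 0.0219, and Hcfc2, 0.0313) and 2 higher (Arid1b, 0.0188, and Ezh1, 0.0479) and no further member, all by limma. Same-numbered libraries deviated together with r = 0.33 over 12357 genes, but only 2 pairs exist, no label says that a number marks a shared animal or batch, and WT replicate 2 has the number 3 in the deposited table. The cause of these differences was not tested. Leaving out a library leaves 1 sample in a group, which is assumed to vary like the other group. Without WT replicate 1, the WT library left is the one with Xist and almost no Y-linked transcripts. The related genes called higher in that fit include the Y-linked Uty and Kdm5d. It cannot separate genotype from this difference between libraries for Uty, Kdm5d or the X-linked Kdm6a and Kdm5c. The largest shift of the median log2 fold change by another scaling was 0.05.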

Other observations

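Of 76 other genes tested within 5 Mb of Paxip1, 3 were called by limma (3.95%), beside 6.29% of all genes tested, and all 3 were higher in Ptip_KO. An unadjusted limma p under 0.05 was found for 21 of the 76, beside 23.8% of all genes. These 3 were named after their values were seen. Galnt11, a glycosyltransferase gene 2.47 Mb from Paxip1, was at 62.3 and 57.4 CPM in the knockout libraries against 35.4 and 34.2 CPM in the wild type (log2 fold change 0.76, limma adjusted p = 0.0143). Abhd1 was at 12.8 and 10.4 CPM in the knockout libraries against 2.44 and 2.68 CPM in the wild type, and Slc35f6 at 92.0 and 85.5 CPM in the knockout libraries against 61.7 and 56.9 CPM in the wild type. Kmt2c lies 2.24 Mb from Paxip1, inside the same window. Insig1, the nearest tested gene on the higher-coordinate side, 0.280 Mb away, was at 77.6 and 81.7 CPM in the knockout libraries against 54.9 and 60.7 CPM in the wild type, with a limma adjusted p of 0.0505.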
